A study of Homo sapiens with 5 samples.

Results

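Binding of ATF3 and p53 was described at 8 genes that hold back the cell cycle after DNA damage: *GADD45A*, *GADD45B*, *GADD45G*, *BTG2*, *SFN*, *PLK2*, *PLK3* and *CDKN1B*. The genes were chosen by name, with earlier results of these data known. A peak was assigned to a gene when its centre lay between 20 kb upstream of the transcription start site (TSS) and the end of the gene on hg19. They are 8 of the 20163 protein-coding genes of the annotation. Because these genes are short, the regions searched had a median length of 23.6 kb, against 47.2 kb over all protein-coding genes.

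ATF3 and p53 are both raised by DNA damage. ATF3 is a basic leucine zipper factor of the ATF/CREB family that binds the ATF/CRE and AP-1 elements, whereas p53 binds a pair of decameric half-sites. The GADD45 proteins are small stress sensors that inhibit the CDK1-cyclin B complex and activate the kinase MAP3K4. *BTG2* encodes an antiproliferative protein of the BTG/TOB family, and *SFN* encodes 14-3-3 sigma, which keeps CDK1-cyclin B in the cytoplasm. *PLK2* and *PLK3* encode stress-responsive polo-like kinases, and *CDKN1B* encodes p27, an inhibitor of cyclin-dependent kinases. Several of these genes are known p53 targets.

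The study used chromatin immunoprecipitation with sequencing (ChIP-seq) in HCT116, a human colon cancer cell line. The 5 libraries comprised 1 library per condition, without replicates. ATF3-Ctrl and ATF3-CPT came from ATF3-WT cells given DMSO or 1.5 uM of camptothecin (CPT, a topoisomerase I poison that damages DNA) for 4 h, and ATF3-KO came from ATF3-KO cells given DMSO, all precipitated with an ATF3 antibody. The ATF3-KO cells are a line in which both *ATF3* alleles were targeted with recombinant adeno-associated virus, which left a small deletion in an exon. p53-CPT came from p53-WT cells given the same dose of CPT for 4 h and p53-KO from p53-KO cells given DMSO, both precipitated with a p53 antibody. p53-CPT and p53-KO therefore differed in genotype and in treatment, which cannot be told apart. No p53 library from undamaged p53-WT cells was analysed here.

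The ATF3 libraries held 12820520 to 15457013 tags, whereas p53-CPT held 3169743 tags and p53-KO held 1984941 tags. The peak height used is the normalized tag count, scaled to 10000000 tags of the library. The findPeaks score counts tags with at most 1 tag per position and is not adjusted for depth. It is not a part of the tag count of the peak. At some peaks it exceeded the tags recovered from the normalized tag count, as at the *SFN* p53-CPT peak (score 12, 10 tags). Peaks whose score was under a library's tag threshold were not listed, so weaker binding could be missed. As a number of tags, that threshold equals a normalized tag count of 6.95 in ATF3-Ctrl, 5.82 in ATF3-CPT, 8.58 in ATF3-KO, 22.1 in p53-CPT and 30.2 in p53-KO. These values are a guide and not strict floors. The threshold applied to the score, and some listed peaks had lower normalized tag counts, such as a *PLK2* peak of 6.2 in ATF3-Ctrl. Intervals below are 95% intervals that cover counting error only, since PCR-amplified tags are not independent molecules and 1 library per condition gives no measure of biological spread.

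The sequences under the 5 p53-CPT peaks of these genes are shown first, because the p53 motif and the ATF3 cores in them are compared with the peak positions below. Each window spans 140 bp around the centre of the peak in the GRCh37 (hg19) reference, on the strand of the gene. Capitals mark the p53 motif (a pair of 10-base half-sites with no spacer and at most 3 mismatches) and the AP-1 core, TGACTCA or TGAGTCA, which are reverse complements of each other and were searched on both strands.
GADD45A p53-CPT (chr1:68152380-68152519, plus strand): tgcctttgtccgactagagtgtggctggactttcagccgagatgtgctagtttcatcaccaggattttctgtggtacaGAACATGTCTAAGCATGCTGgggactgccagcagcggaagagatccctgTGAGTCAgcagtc
PLK2 p53-CPT (chr5:57758040-57758179, minus strand): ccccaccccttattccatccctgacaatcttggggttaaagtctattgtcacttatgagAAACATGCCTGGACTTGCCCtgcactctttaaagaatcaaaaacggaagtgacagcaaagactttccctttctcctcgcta
SFN p53-CPT (chr1:27187783-27187922, plus strand): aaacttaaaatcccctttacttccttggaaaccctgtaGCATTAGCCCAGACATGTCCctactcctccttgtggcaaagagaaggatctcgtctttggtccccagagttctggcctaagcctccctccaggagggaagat
BTG2 p53-CPT (chr1:203275741-203275880, plus strand): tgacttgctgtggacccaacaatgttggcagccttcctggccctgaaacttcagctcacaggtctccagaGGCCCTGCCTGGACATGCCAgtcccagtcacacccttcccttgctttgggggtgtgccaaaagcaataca
PLK3 p53-CPT (chr1:45265532-45265671, plus strand): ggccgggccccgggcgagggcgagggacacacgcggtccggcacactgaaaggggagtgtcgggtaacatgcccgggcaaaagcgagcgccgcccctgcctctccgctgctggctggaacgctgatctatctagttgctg
The *PLK2* window matched the p53 motif with 0 mismatches, with the motif at the peak centre. The *GADD45A* match had 1 mismatch and lay 18 bp from the centre, the *SFN* match had 2 mismatches at 22 bp, and the *BTG2* match had 3 mismatches at 10 bp. The *PLK3* window held no match, and its best alignment had 4 mismatches without a spacer, or 3 with a spacer of 6 bp. Thus 4 of the 5 peaks held the motif. Of all p53-CPT peaks that overlapped no p53-KO peak on the 24 chromosomes, 43.2% held it. The *GADD45A* window was the only one of the 5 that also held an AP-1 core, 60 bp from the peak centre.

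Peaks of ATF3 were found at 7 of the 8 genes in ATF3-Ctrl and at 8 of 8 in ATF3-CPT, and peaks of p53 were found at 5 of 8 in p53-CPT. The background over all protein-coding genes was 65.1% for ATF3-Ctrl, 81.0% for ATF3-CPT and 21.8% for p53-CPT. ATF3 was thus listed near most genes of the genome, and a count of 7 or 8 of 8 stood near that background. *CDKN1B* was among the 7 only through a peak of 7.7 that lay 7 bp from the TSS of *GPR19*. With regions from the canonical transcript, 6 of the 8 genes had an ATF3-Ctrl peak. The count was also 6 when only peaks with the member's TSS as the nearest were kept. The 5 genes with a p53-CPT peak were *GADD45A*, *PLK2*, *PLK3*, *BTG2* and *SFN*, 62.5% of the 8. None of the 5 peaks overlapped a p53-KO peak, whereas 60.9% of all p53-CPT peaks did. A p53-CPT peak free of p53-KO overlap was found at 11.1% of all protein-coding genes. No p53-CPT peak was listed at *GADD45B*, *GADD45G* or *CDKN1B*.

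The knockout libraries had no peak in the regions of these 8 genes. Over all protein-coding genes, 11.4% had an ATF3-KO peak and 17.4% had a p53-KO peak. Of all ATF3-CPT peaks, 2.60% overlapped an ATF3-KO peak. The higher thresholds of the knockout libraries limit this comparison. Those thresholds applied to the score, so the normalized tag counts given here for them are approximate. Of the 17 ATF3-Ctrl peaks and 31 ATF3-CPT peaks of these genes, 4 and 8 had normalized tag counts at or under 8.58, the value at the ATF3-KO threshold. All 5 p53-CPT peaks were above the 30.2 of p53-KO, the *SFN* peak only by a small margin.

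The number of ATF3 peaks was above that of the typical gene although the regions were shorter. The 8 genes held a median of 2.50 ATF3-Ctrl peaks, against 1.00 over all protein-coding genes, and a median of 4.00 ATF3-CPT peaks, against 2.00. Some of these peaks lay nearer to the TSS of another gene. Of the 17 ATF3-Ctrl and 31 ATF3-CPT peaks, 14 and 24 had the TSS of the member as the nearest coding TSS. The medians over all genes were not restricted in this way. By region, *GADD45B* had the most ATF3-CPT peaks (8, with 3 in ATF3-Ctrl), but some of them were nearest to *LMNB2*. *SFN* had the most ATF3-Ctrl peaks (4, with 4 in ATF3-CPT). *GADD45G* had no ATF3-Ctrl peak and 1 ATF3-CPT peak. The map of peak positions shows that ATF3-CPT peaks were spread over the upstream regions, while each p53-CPT peak had its centre within 2144 bp of the TSS of its gene.

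**Figure D1:**
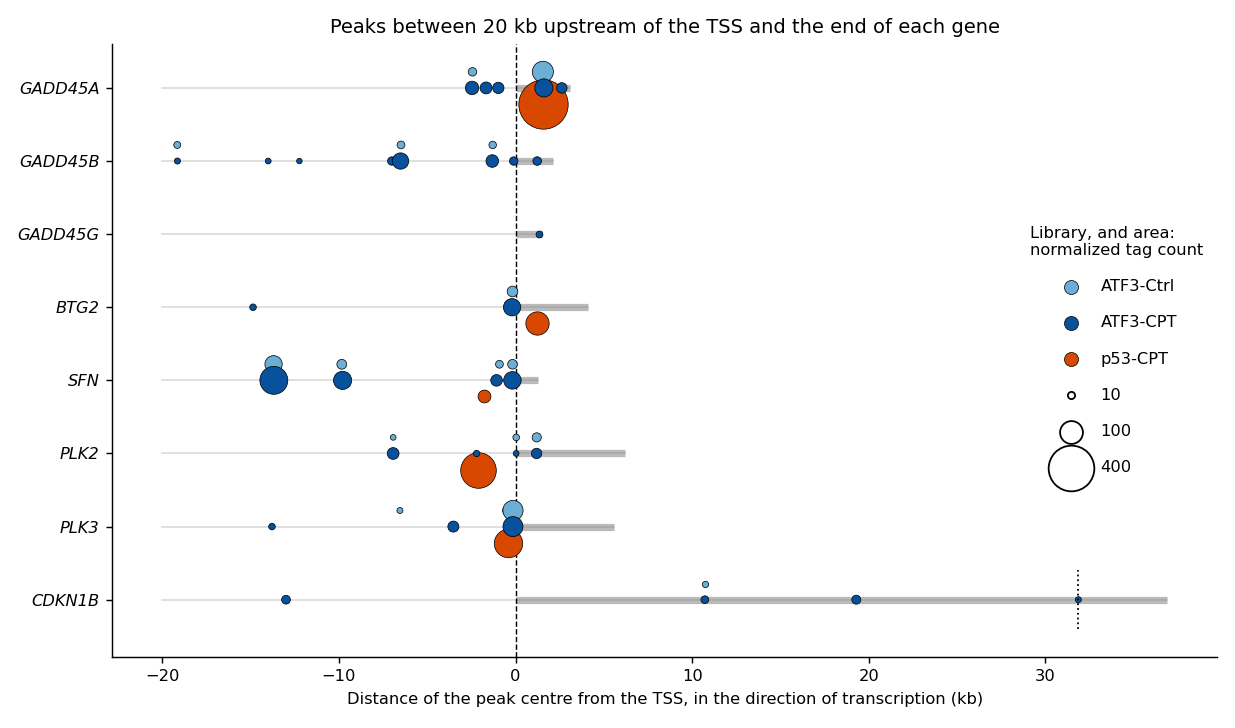
Positions of ATF3-Ctrl, ATF3-CPT and p53-CPT peaks at the 8 genes, as the distance from the TSS in kb (x axis), with 1 row per gene and the area of each circle proportional to the normalized tag count. Thin grey lines are the regions searched, thick lines the genes and the dotted line the TSS of the canonical *CDKN1B* transcript. All 8 genes have an ATF3-CPT peak and 5 have a p53-CPT peak, the highest of them (466.9) at *GADD45A*.

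*GADD45A* had the highest p53 peak and one of the higher ATF3 peaks of the group, at the same place. In p53-CPT the peak lay in intron 3, 1566 bp downstream of the TSS (chr1:68152291-68152609), and reached a normalized tag count of 466.9 (interval 395 to 548) and a score of 108. By score it ranked 33 among the 3600 p53-CPT peaks without p53-KO overlap. The ATF3 peak at this place had a normalized tag count of 85.0 (69.8 to 102) in ATF3-Ctrl and of 63.4 (51.5 to 77.3) in ATF3-CPT. It was therefore listed before damage, and its CPT to Ctrl ratio was 0.746 (0.563 to 0.989). The 2 listed ATF3 intervals had centres 56 bp apart, the largest shift of the 14 shared sites. The ratio therefore compares intervals that overlap only in part. Both ATF3 peaks lay inside the p53 peak, with centres 18 bp and 38 bp from the p53 centre. The p53 motif shown above lay inside both ATF3 intervals, whereas the AP-1 core lay in the ATF3-CPT interval and beyond the end of the ATF3-Ctrl interval. Upstream of *GADD45A*, an ATF3 peak 2438 bp from the TSS had a normalized tag count of 13.9 in ATF3-Ctrl and 34.9 in ATF3-CPT, a ratio of 2.51 (1.45 to 4.55). The other ATF3-CPT peaks of *GADD45A*, at 27.2, 24.6 and 21.3, had no counterpart in ATF3-Ctrl.

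*PLK2*, a polo-like kinase gene, had the second highest p53 peak and a low ATF3 peak inside it. The p53-CPT peak lay 2144 bp upstream of the TSS (chr5:57757951-57758269) and had a normalized tag count of 242.9 (192 to 304) and a score of 67, rank 87 of 3600. An ATF3-CPT peak with its centre 62 bp away lay inside it, with a normalized tag count of 7.8 (4.01 to 13.6) and a score of 13, against the list's threshold of 9. In ATF3-Ctrl no peak was listed there, and the nearest lay 2181 bp away, at the TSS. The strongest ATF3-CPT peak of *PLK2* was a separate one 6931 bp upstream, with a normalized tag count of 26.5 (19.0 to 36.0). In ATF3-Ctrl that site had 6.2 (2.67 to 12.2), a ratio of 4.27 (1.99 to 10.6). The other shared ATF3 sites of *PLK2* had intervals that included 1, with ratios of 1.28 (0.714 to 2.33) in intron 2 and 0.765 (0.290 to 1.98) at the TSS.

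*PLK3*, the related kinase gene, had its p53 peak in the promoter, next to one of the stronger basal ATF3 peaks. The p53-CPT peak lay 447 bp upstream of the TSS (chr1:45265443-45265761) and had a normalized tag count of 154.6 (114 to 204) and a score of 44, rank 186 of 3600. The main ATF3 peak of the promoter lay 144 bp upstream of the TSS, and its normalized tag count was 78.0 (63.5 to 94.8) in ATF3-Ctrl and 76.3 (63.2 to 91.4) in ATF3-CPT. The heights before and after CPT overlapped in their intervals, with a ratio of 0.978 (0.744 to 1.29), although the ratio was 0.429 when scaled by tags in peaks instead of total tags. Its ATF3-CPT interval was separated from the p53 peak by 79 bp, and the centres were 301 bp apart. A smaller ATF3-Ctrl peak of 13.1 (7.65 to 21.0) lay inside the p53 peak, 51 bp from its centre, and no ATF3-CPT peak was listed at that place.

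*BTG2* and *SFN* had p53 and ATF3 peaks that did not touch. At *BTG2*, the p53-CPT peak lay in intron 1, 1192 bp downstream of the TSS (chr1:203275652-203275970), and reached a normalized tag count of 104.1 (71.7 to 146) and a score of 31, rank 340 of 3600. The ATF3 peak of *BTG2* lay 197 bp upstream of the TSS, 1389 bp from the p53 centre, at a normalized tag count of 21.6 in ATF3-Ctrl and 57.6 in ATF3-CPT, a ratio of 2.67 (1.72 to 4.23). At *SFN*, the p53-CPT peak lay 1787 bp upstream (chr1:27187694-27188012) and was the weakest of the 5, with a normalized tag count of 31.5 (15.1 to 58.0), a score of 12 and rank 1177 of 3600. The nearest ATF3-CPT peak, of 25.9, lay 712 bp from it.

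Counted together, 2 of the 5 p53-CPT peaks overlapped an ATF3-CPT peak (*GADD45A* and *PLK2*) and 2 overlapped an ATF3-Ctrl peak (*GADD45A* and *PLK3*). Of the 3600 p53-CPT peaks without p53-KO overlap, 19.0% overlapped an ATF3-CPT peak and 11.3% overlapped an ATF3-Ctrl peak. At the level of genes, 2 of the 8 had an overlapping pair of p53-CPT and ATF3-CPT peaks, and 2.78% of all protein-coding genes had such a pair with no p53-KO peak overlapping the p53-CPT peak. Neither p53-CPT peak of the 2 genes overlapped a p53-KO peak. With 5 peaks, the share of overlap has little precision. The height of the p53 peak and the height of ATF3 beside it did not run in parallel, as *PLK2* had the second highest p53 peak and the lowest ATF3-CPT peak of the 5 nearest ones.

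**Figure D2:**
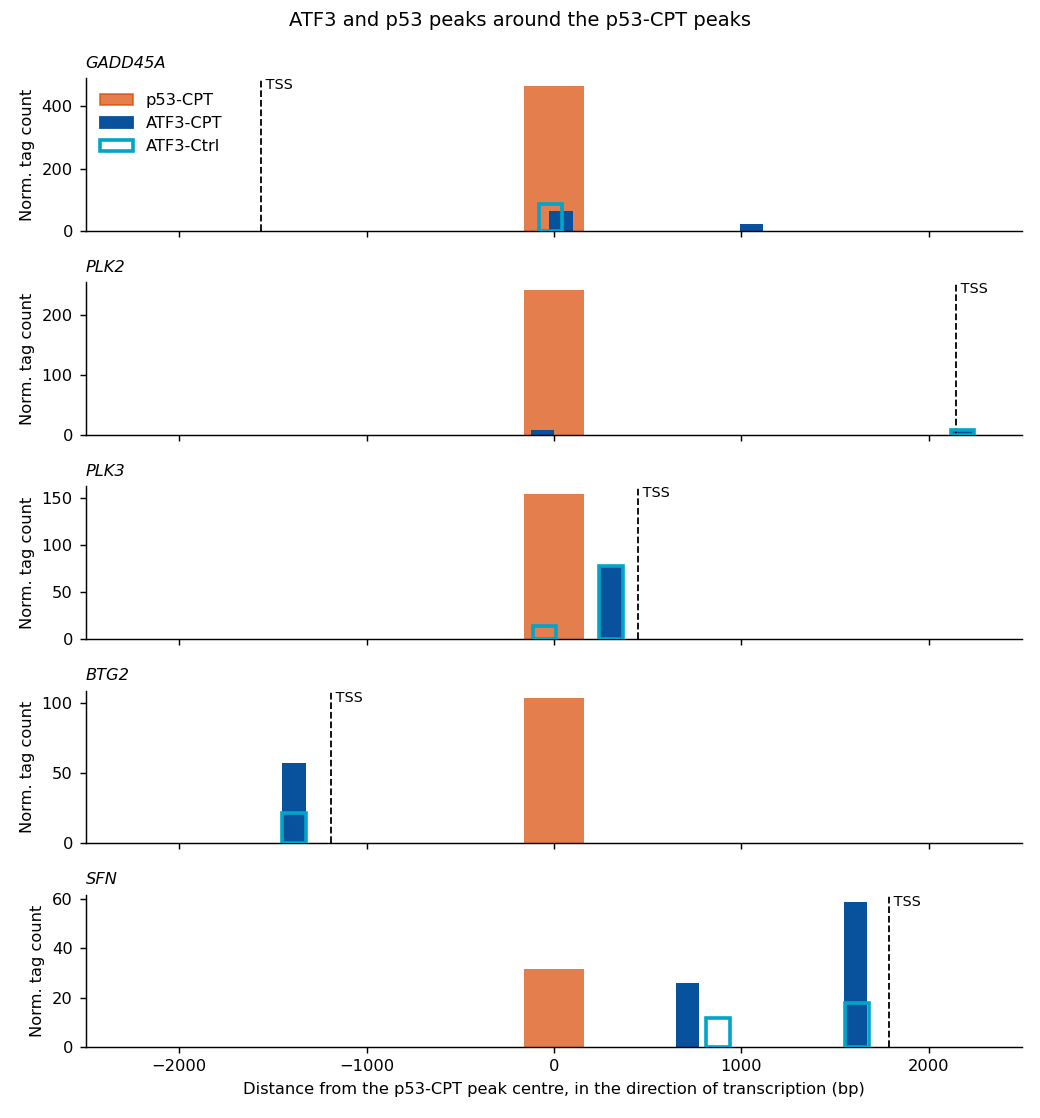
Normalized tag counts (y axis, a separate scale for each gene) of the p53-CPT, ATF3-CPT and ATF3-Ctrl peaks within 2.5 kb of the p53-CPT peak centre (x axis, bp in the direction of transcription). Bars span the listed peak intervals, ATF3-Ctrl is outlined and the dashed line is the TSS. At *GADD45A* and *PLK2* an ATF3-CPT peak lies within the p53 peak, at *PLK3* it lies beside it, and at *BTG2* and *SFN* the ATF3 peaks lie nearer the TSS.

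The strongest ATF3-CPT peak of the 8 genes lay far upstream of *SFN* and not at a p53 peak. It was 13686 bp upstream of the TSS, where the normalized tag count reached 149.4 (131 to 170) and the score 150, rank 155 of the 70702 ATF3-CPT peaks. At the same site ATF3-Ctrl had 57.2 (44.9 to 71.8). Further ATF3 peaks of *SFN*, 9838 bp and 171 bp upstream, had normalized tag counts of 18.5 and 17.8 in ATF3-Ctrl and of 63.4 and 58.9 in ATF3-CPT. All 3 sites were higher in ATF3-CPT, with ratios of 2.61 (2.00 to 3.45), 3.43 (2.17 to 5.59) and 3.31 (2.08 to 5.49).

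Genes without a p53-CPT peak were also marked by ATF3. *GADD45B* had an ATF3 peak 6485 bp upstream of the TSS, whose normalized tag count was 11.6 (6.48 to 19.1) in ATF3-Ctrl and 51.1 (40.5 to 63.7) in ATF3-CPT, a ratio of 4.41 (2.52 to 8.25) and the highest ratio of the group. Nearer to the gene, 1294 bp upstream, the values were 10.8 and 30.4, a ratio of 2.81 (1.52 to 5.53). A weak site at -19154 bp from the TSS, with 9.3 in ATF3-Ctrl and 7.1 in ATF3-CPT, lay 9 bp from the TSS of another gene, *LMNB2*. The only peak of *GADD45G* was an ATF3-CPT peak of 9.1 (4.95 to 15.2) over its exon 4, which includes untranslated sequence. The ATF3 peaks of *CDKN1B* had normalized tag counts of 7.7 in ATF3-Ctrl and of 14.9, 11.6, 15.5 and 7.1 in ATF3-CPT, beside list medians of 10.0 and 11. The gene record of *CDKN1B* starts upstream of its canonical transcript. Measured from the canonical TSS, the peak of 7.1 had its centre 2 bp away, and the 11.6 peak lay 10 bp from the TSS of *GPR19*. The latter was the only shared site of *CDKN1B*, with a ratio of 1.51 (0.660 to 3.66).

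ATF3-Ctrl and ATF3-CPT peaks were then compared at the sites present in both lists, which addresses how CPT changed ATF3 binding. Of the 17 ATF3-Ctrl peaks of these genes, 14 (82.4%) overlapped an ATF3-CPT peak, beside 79.8% of all ATF3-Ctrl peaks. In the other direction, 17 of the 31 ATF3-CPT peaks (54.8%) had no counterpart in ATF3-Ctrl, beside 61.7% of all ATF3-CPT peaks. These shares stood near those of the whole lists. Those new in the ATF3-CPT list had a median normalized tag count of 13.6 and a range of 5.80 to 27.2. The median over all ATF3-CPT peaks was 11, but that set also holds the shared peaks, so the 2 medians are not like for like. An example is *SFN*, where an ATF3-Ctrl peak of 11.6 and an ATF3-CPT peak of 25.9 lay close together about 1 kb upstream without overlapping.

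At the 14 shared sites, the ratio of the normalized tag count in ATF3-CPT to that in ATF3-Ctrl was 2.56 at the median, with a range of 0.746 to 4.41. The median over all 27104 shared sites was 1.80. A ratio of at least 1.5 was seen at 9 of the 14 sites, beside 60.5% of all shared sites, and no site was lower by that factor, beside 6.45% of all. The interval lay above 1 at 8 sites and below 1 at 1 site, the *GADD45A* intron, where the 2 peak centres were 56 bp apart. The direction depended on the scaling. ATF3-CPT had 12.76% of its tags in peaks and ATF3-Ctrl had 5.6%. When the tags were scaled by the tags in peaks, which multiplied every ratio by 0.439, the median ratio of the 14 sites was 1.12, with 3 sites higher and 6 lower by a factor of 1.5. Under that scaling the median of all shared sites was 0.788, with 10.3% higher and 40.3% lower.

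**Figure D3:**
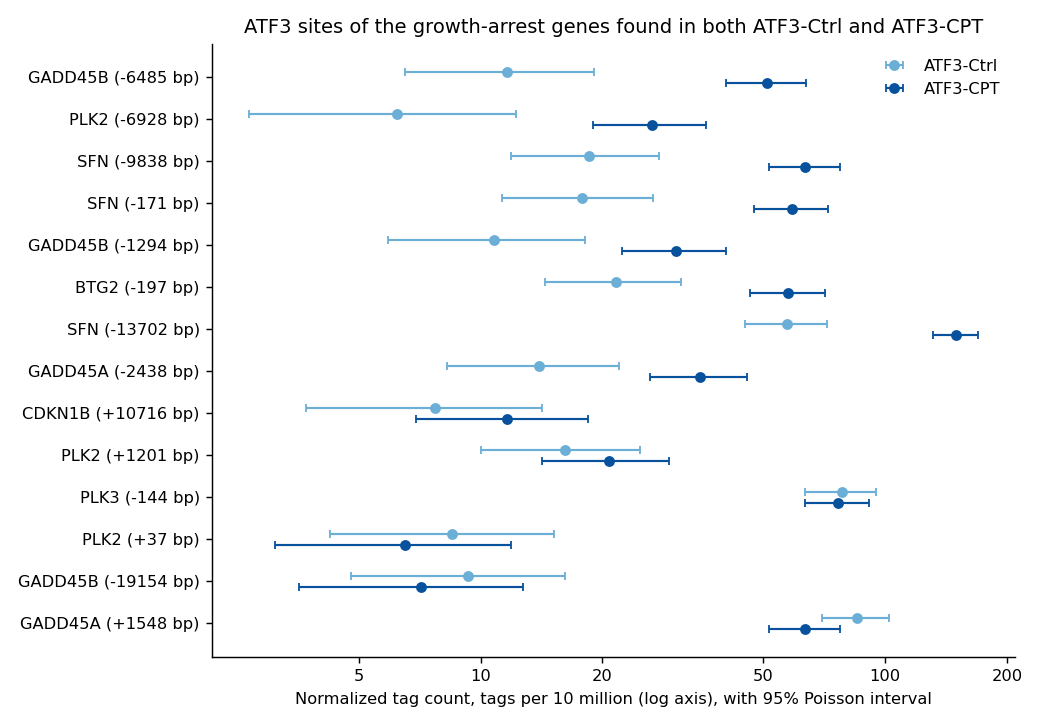
Normalized tag counts (x axis, log scale) of the 14 ATF3 sites found in both ATF3-Ctrl and ATF3-CPT, named by gene and by the distance of the ATF3-Ctrl centre from the TSS and ordered by the CPT to Ctrl ratio. Points are single libraries and bars are 95% Poisson intervals for counting error. At the 8 sites from *GADD45B* (-6485 bp) down to *GADD45A* (-2438 bp) ATF3-CPT was higher, and at *PLK3* (-144 bp) the points nearly coincide.

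The ratio is given separately for sites close to a TSS and sites farther away, a division made after the values had been seen and not tested. The 9 sites within 2 kb of a coding TSS had a median ratio of 1.28 (range 0.746 to 3.31), with 4 of 9 at 1.5 or more, beside a median of 1.35 and a share of 42.4% over the 5863 such sites of the genome. The TSS was not always that of a growth-arrest gene. Among the 9 were the site at the *LMNB2* TSS (ratio 0.763) and the site at the *GPR19* TSS. The latter, at 1.51 (0.660 to 3.66), was 1 of the 4. The 5 sites farther away had a median of 3.43 (2.51 to 4.41), with 5 of 5 at 1.5 or more, beside 1.98 and 66.0% over 21043 sites. They were the upstream sites of *GADD45A*, *GADD45B*, *PLK2* and *SFN*. The 2 strongest ATF3-Ctrl sites of the group, the *GADD45A* intron (85.0, rank 373 of 33966 by score) and the *PLK3* promoter (78.0, rank 474), were among the sites that were not higher in ATF3-CPT.

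The sequences of these upstream sites in ATF3-CPT are printed for the 4 genes, because each of these peaks held an AP-1 core, in capitals. The sequences are the listed peak intervals on the strand of the gene, in GRCh37.
SFN ATF3-CPT (chr1:27175892-27176016, plus strand): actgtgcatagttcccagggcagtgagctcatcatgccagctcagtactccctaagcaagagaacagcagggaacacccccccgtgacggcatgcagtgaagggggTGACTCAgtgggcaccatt
GADD45B ATF3-CPT (chr19:2469549-2469673, plus strand): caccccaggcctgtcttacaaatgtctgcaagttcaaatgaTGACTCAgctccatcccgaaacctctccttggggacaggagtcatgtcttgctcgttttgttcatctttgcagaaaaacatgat
PLK2 ATF3-CPT (chr5:57762835-57762959, minus strand): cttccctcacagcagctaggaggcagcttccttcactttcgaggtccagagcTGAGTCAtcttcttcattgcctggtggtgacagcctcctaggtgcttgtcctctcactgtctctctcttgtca
GADD45A ATF3-CPT (chr1:68148361-68148485, plus strand): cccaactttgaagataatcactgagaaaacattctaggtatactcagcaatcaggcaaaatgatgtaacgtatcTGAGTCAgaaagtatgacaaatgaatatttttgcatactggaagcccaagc
The core lay 47 bp, 18 bp, 7 bp and 15 bp from the peak centre at *SFN*, *GADD45B*, *PLK2* and *GADD45A*, respectively. At *SFN* the ATF3-Ctrl interval of the same site ended inside the core and held its first 4 bases. The remaining distant site, 9792 bp upstream of *SFN* in ATF3-CPT, held no exact core. Distant ATF3-CPT peaks without an ATF3-Ctrl counterpart were mixed. Those of *GADD45B* at -7007 bp and *PLK3* at -3520 bp held an AP-1 core. Those of *BTG2* at -14864 bp and *GADD45B* at -14005 bp held none. The share of cores was not computed separately for distant and promoter peaks.

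The promoter peaks of *PLK3*, *BTG2* and *SFN* held neither an exact AP-1 core nor the exact ATF/CRE core TGACGTCA and are shown beside them. Other ATF3-CPT peaks within 2 kb of a TSS did hold an exact AP-1 core, namely those of *GADD45A* at -1669 bp and 1604 bp from the TSS, of *SFN* at -1075 bp and of *GADD45G* at 1346 bp. Capitals in the *BTG2* sequence mark 8-base runs that differ from TGACGTCA at 1 position. The upstream *SFN* sequence printed above also holds such a run, TGACGGCA, which is not marked there.
PLK3 ATF3-CPT (chr1:45265841-45265965, plus strand): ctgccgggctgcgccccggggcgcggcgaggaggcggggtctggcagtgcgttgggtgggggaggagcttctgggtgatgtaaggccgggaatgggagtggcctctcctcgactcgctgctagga
BTG2 ATF3-CPT (chr1:203274361-203274485, plus strand): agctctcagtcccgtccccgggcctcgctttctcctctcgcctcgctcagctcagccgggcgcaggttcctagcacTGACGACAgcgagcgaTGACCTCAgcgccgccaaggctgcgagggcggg
SFN ATF3-CPT (chr1:27189401-27189525, plus strand): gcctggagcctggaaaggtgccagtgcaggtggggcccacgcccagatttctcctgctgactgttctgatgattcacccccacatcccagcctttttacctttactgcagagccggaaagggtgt
These *PLK3* and *SFN* sequences have no capitals because no ATF/CRE core was found in them at that limit either. Mismatched AP-1 cores are not marked. A window without a core shows only that these letters are absent from it.

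Over all peaks of the 8 genes, an AP-1 core was found in 3 of 17 ATF3-Ctrl peaks and 12 of 31 ATF3-CPT peaks. Over the whole lists the shares were 31.0% in ATF3-Ctrl and 40.6% in ATF3-CPT, so the member peaks stood near the background in ATF3-CPT. The exact ATF/CRE core was found in 0 of 17 and 0 of 31 peaks, beside 1.93% and 1.41% of the whole lists. With 1 mismatch allowed, 5 of the 31 ATF3-CPT peaks held it, beside 14.2% of the whole list.

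Related genes were examined in 3 lists chosen by function, with earlier results of these data known. The relatives of the 8 genes (BTG/TOB, polo-like kinase, CIP/KIP and 14-3-3 families) had an ATF3-CPT peak at 16 of 16 genes and a p53-CPT peak at 4 of 16. Known arrest and feedback targets of p53 had an ATF3-CPT peak at 14 of 14 genes and a p53-CPT peak at 10 of 14. The cell-cycle machinery on which the proteins act had an ATF3-CPT peak at 17 of 17 genes and a p53-CPT peak at 3 of 17, beside the 21.8% of all genes given above. Of the 3 lists, in the same order, 14, 11 and 13 genes had an ATF3-Ctrl peak, 0, 1 and 3 had an ATF3-KO peak, and 1, 0 and 1 had a p53-KO peak. The p53-CPT peak overlapped an ATF3-CPT peak and no p53-KO peak at 2, 6 and 2 genes. *CDKN1A* is in both of the first 2 lists. The median number of ATF3-CPT peaks was 3, 4 and 3 in these lists, against 4 in the 8 genes. The shares by library show that ATF3-CPT did not separate the lists, whereas p53-CPT peaks were listed at 62.5% of the 8 genes, 71.4% of the p53 targets, 25.0% of the relatives and 17.6% of the machinery. The target list was made of known p53 targets, and several of the 8 genes are such targets too. The order of these p53-CPT shares is therefore not an independent finding.

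**Figure D4:**
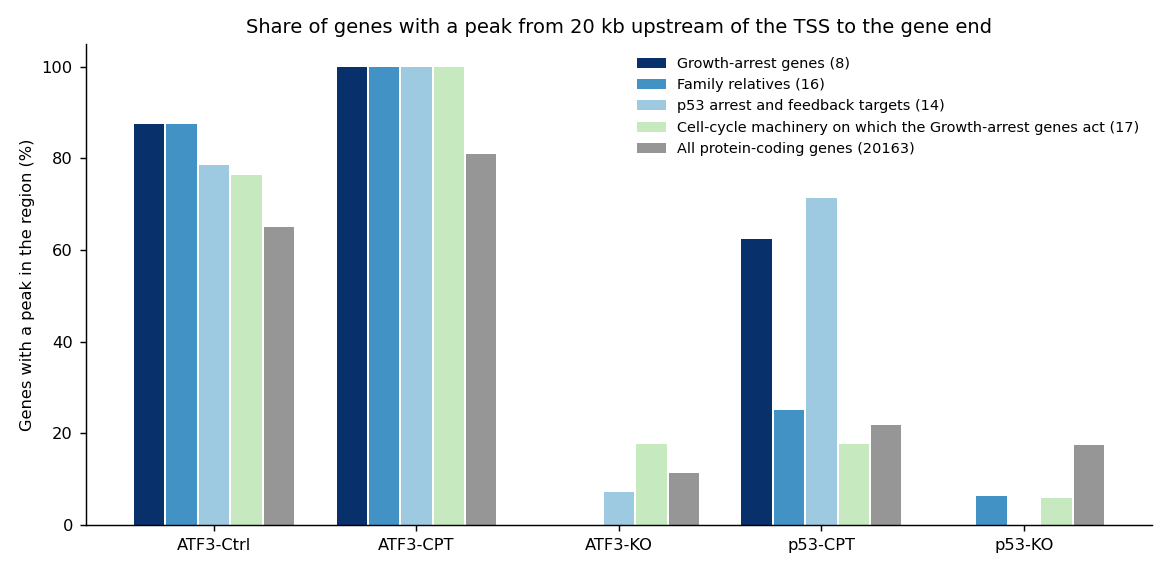
Share of genes (y axis, %) with at least 1 peak in the region, for each library (x axis) and gene list, with the number of genes in brackets. In ATF3-CPT the bars of the 8 growth-arrest genes and of the 3 lists are at 100%, beside 81.0% for all protein-coding genes, and in p53-CPT the growth-arrest genes (62.5%) and the p53 targets (71.4%) are the highest bars.

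Among the listed relatives and targets, *CDKN1A*, which encodes the CDK inhibitor p21 and is a relative of *CDKN1B*, had the highest p53-CPT peak, with a normalized tag count of 905.4. The highest ATF3 peak in the *CDKN1A* region was 190.8 in ATF3-Ctrl and 168.9 in ATF3-CPT. The p53-CPT peak of 905.4, centred at -5 bp from the TSS of its gene record, did not overlap an ATF3-CPT peak. Its distance from the canonical TSS of *CDKN1A* is not given here. Other p53-CPT peaks of *CDKN1A* are not described here. The p53-CPT peak of *MDM2*, the ubiquitin ligase that restrains p53, was 258.7, and that of *GDF15*, a secreted stress cytokine, was 252.4, both close to the 242.9 of *PLK2*. Both of these peaks overlapped an ATF3-CPT peak. *CCNG2*, a cyclin gene linked to arrest, had 312.3, in a peak 175893 bp from the TSS of its gene record. The p53 peak of *GADD45A* (466.9) was lower than that of *CDKN1A* and higher than those of *MDM2* and *GDF15*.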

How the data were processed

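The 5 ChIP-seq libraries of HCT116 cells comprised 1 library per condition. Crosslinking used DSG (1 mM, 45 min) and then formaldehyde (1%, 10 min), and chromatin was sheared to about 500 bp. The submitters' processing notes name BWA 0.6.1 and HOMER 4.1 and the build hg19 (GRCh37). Per the file headers, the authors called peaks in each library separately with findPeaks, with no input control in the command, requiring an FDR of 0.001 and, over the surrounding 10000 bp, a fold of 4 and a Poisson p-value of 1e-04.

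The deposited lists give for each peak a signal, which is the normalized tag count scaled to 10000000 tags, and a score, computed by the authors. The fold ratio over the local region, its p-value, the clonal fold and the fraction of tags near the centre (focus ratio) were also deposited by the authors and not used. Tags were recovered from the normalized tag count and library size, and lay within 0.0769 of a whole number. A signal of 3 tags equals a normalized tag count of 1.94 to 2.34 in the ATF3 libraries, 9.46 in p53-CPT and 15.1 in p53-KO.

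The 8 genes, the related lists and the tests were chosen with earlier results of these data known. Genes are those of GENCODE release 44 on GRCh37. Peaks were shared if they overlapped by at least 1 bp, and where several ATF3-CPT peaks overlapped a site the one with the best score was used. Single values have exact Poisson intervals and ratios exact conditional (Clopper-Pearson) intervals at 95%. Sites past a factor of 1.5 were counted. No test between conditions was possible with 1 library each. The p53 motif was searched in 200 bp around peak centres and the cores in the peak intervals, on chromosomes 1 to 22, X and Y. Named were all 8 genes with the highest-scoring peak of each list and every p53-CPT peak, up to 10 listed relatives or targets by p53-CPT score, and genes among the 3 nearest in pattern (those of *SFN* are not reported here). Other peaks and *LMNB2* and *GPR19* were named after their values were seen. Alternatives covered the region, the score minimum, the gene model, the overlap, the scaling and the motif limits, and centres within 500 bp was added after seeing the data. Scripts (Python 3.11.15, numpy 2.4.6, pandas 2.3.3, scipy 1.17.1) were tested on simulated data, and 11 of 11 checks passed.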

Additional observations from a re-analysis of the deposited data

How the results depend on the processing

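Of 98 comparisons of the main results with an alternative, 19 moved by more than the tolerance, which was a factor of 1.5 for a count and 0.1 on the log2 scale for a median ratio, and 79 stayed within it. With regions from 5 kb upstream, the 8 genes held 11 ATF3-Ctrl peaks, 20 ATF3-CPT peaks and 9 shared sites. With regions from 50 kb upstream, 3 of the genes had an ATF3-KO peak (3 peaks) and 1 had a p53-KO peak (1 peak), 3 ATF3-CPT peaks overlapped an ATF3-KO peak and 1 p53-CPT peak overlapped a p53-KO peak, against 0 for each in the main regions. With a score of at least 20 in every list, 7 ATF3-Ctrl peaks remained listed, 7 were shared, 4 of these were at least 1.5 times higher in ATF3-CPT and 1 p53-CPT peak overlapped an ATF3-CPT peak. The median CPT to Ctrl ratio was 1.95 from scores divided by total tags and 1.12 when scaled by tags in peaks, under which 3 sites were at least 1.5 times higher. An AP-1 or ATF/CRE core was found in 6 ATF3-Ctrl peaks with 200 bp around the centre, and in 12 ATF3-Ctrl and 22 ATF3-CPT peaks with 1 mismatch allowed. The causes were not tested. Of 28 comparisons for single sites, 12 left the 95% interval of the site's ratio, 11 of them under the scaling by tags in peaks, which lowered all 14 ratios. The ratios at the *PLK2* intron (1.28 to 0.561) and *CDKN1B* (1.51 to 0.661), whose intervals included 1, crossed 1 under that scaling.

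No replicate was left out. No paired analysis was possible because each condition had 1 library and no test was run. The shallow p53 libraries set the depth limit, as the tag thresholds corresponded to normalized tag counts of 22.1 in p53-CPT and 30.2 in p53-KO.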

Other observations

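For *GADD45A*, *BTG2*, *PLK2* and *PLK3*, the protein-coding genes nearest in pattern were found from the highest normalized tag count in the region in each of the 5 libraries, as a Euclidean distance of log2(1 + value). The nearest genes to *PLK2* included *DDB2*, a DNA repair gene and known p53 target, at a distance of 0.33, with values of 15.4 in ATF3-Ctrl, 25.2 in ATF3-CPT and 196 in p53-CPT. The nearest to *BTG2* were *EIF4G3* (0.34), *SCIN* (0.36) and *KCNN4* (0.37). *PLK3* shared its peaks with the neighbouring *BEST4* (0.00), and the next were *FHL2* (0.49) and *FAM174B* (0.65). *GADD45A* had no close neighbour, the nearest being *ERI2* and *DCUN1D3* at 1.04 and *GSN* at 1.19. In *GSN* the values were 40.2 in ATF3-Ctrl, 73.8 in ATF3-CPT and 331 in p53-CPT. In their regions, these genes had no peak in either knockout library. The knockout values were part of the distance, so this is not an independent finding.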
